A study of Rattus norvegicus with 4 samples.

Results

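AceView is a gene annotation program that groups complementary DNA and expressed sequence tags aligned to a genome, and it gives an invented, pronounceable name such as syby or blermu to a group that matches no named gene. The rows described here are the listed long noncoding RNA (lncRNA) transcripts with such an all-lower-case AceView name and no Ensembl name, leaving out those named gokla and stawflu. They number 8475 of the 20524 rows of the tables, or 41.3%. The other 12049 rows carry gene symbols, AceView-style names of another form, Ensembl names, StringTie identifiers or NONCODE identifiers alone. Among them, 3 are instead the gokla and stawflu rows. Those 3 rows held 3.76% to 4.75% of the listed counts of a library. The AceView rows bear 8113 names and form 8114 loci, where a locus is all rows with 1 name on 1 chromosome.

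The transcripts were measured by RNA sequencing in astrocytes, the star-shaped support cells of the brain, grown from the cerebral cortex of Wistar rat pups under 24 h old. All astrocytes were kept on coverslips over neuron cultures, held apart from the neurons by dots of paraffin, so both groups share this co-culture. The control group was untreated and the other group had 45 min of oxygen and glucose deprivation (OGD, at 1% oxygen in medium without glucose) followed by 24 h in normal medium and air. Each group has 2 libraries, and no genotype, transgene or clone is named in the labels. Whether replicates came from separate cultures is not stated, and a p-value here reflects only how far these 4 libraries vary, possibly for technical reasons.

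An lncRNA is a long transcript without a long open reading frame. Many such transcripts are rare and little is known of what most of them do. In the AceView names a letter marks the variant of a gene, and the ending "unspliced" marks a variant in which no intron was found. Because none of these loci has a gene symbol, no function is stated for any of them here, and they are described by form, position, level and change.

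Most AceView rows were unspliced. The ending was present on 6322 of the 8475 rows, or 74.6%, against 2504 of the 12049 other rows, or 20.8%. It belongs to the AceView way of naming, so rows named from other sources mostly could not carry it. A further 7752 rows without an Ensembl name had AceView-style names of another form, such as those built on a gene symbol. Of these, 2495 had the ending, or 32.2%. In 6292 AceView rows, 74.2%, the genomic span equalled the transcript length, which leaves no room for an intron. The share was 23.7% for all other rows and 33.0% for those with AceView-style names of another form. The naming and the geometry agreed in 98.1% of the rows tagged unspliced. In the remaining tagged rows the span was longer than the transcript, and it reached 756632 bases at plovey, for which the tables give no exon structure.

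The AceView transcripts were of middling length. Their median was 668 bases, with quartiles of 466 and 939.5 bases and a range of 203 to 7366. Other rows had a median of 701 bases, an upper quartile of 1153 bases and a maximum of 36703. Unspliced AceView rows were longer than those without the tag, with medians of 712 and 538 bases. The median genomic span went the other way, at 714 bases for unspliced rows and 3436 bases for the rest. The shortest rows were darshey at 203 bases and bleygar and warwaw at 204, and these 3 had at most 3 counts in any library. The longest were parbee at 7366, koygler at 5462 and fublar at 5215 bases, all unspliced.

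Every chromosome from 1 to 20 and the X chromosome held AceView rows. Their share of the rows listed for a chromosome lay between 37.1% on chromosome 14 (95% exact binomial interval 33.6 to 40.8) and 48.3% on chromosome 13 (44.5 to 52.1). The share over all rows, 41.3%, lies below the intervals of chromosomes 4, 13 and 18 and above those of chromosomes 1, 7 and 14. These intervals are not adjusted for the number of chromosomes, and they treat rows of the same locus as independent. Counted per megabase up to the last listed position, chromosome 10 was densest with 5.35 AceView rows and the X chromosome sparsest with 1.51. This was not particular to AceView rows, whose share of the rows listed there was 40.7% and 42.1%, near the share over all rows. None of the 3 rows on the Y chromosome or the 12 rows on unplaced scaffolds was an AceView row. Coordinates are those of the tables and no build is named for them, since the submitters' processing notes name a mouse build and the tables list rat chromosomes.

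These rows lay mostly away from listed transcripts that carry a gene symbol, where names made of LOC, RGD or AABR numbers were not counted. The median distance to the nearest such row was 83.4 kb, and no value is given here for other rows. Within 5 kb lay 1167 of the 8475 rows, or 13.8%, and 3978, or 46.9%, were over 100 kb away. The tables list noncoding transcripts only, so the gene itself may be nearer. Another listed locus overlapped 1198 AceView rows, or 14.1%, against 19.0% of other rows. With loci joined where gaps were at most 5 kb, 2082 loci fell into 932 runs of 2 or more. The longest run by number had 7 loci and lay inside the span of plovey on chromosome 5. The next were 2 runs of 6. One was on chromosome 1 from 137409276 to 137427306 (reeflu, smarglo, smawglo, smeeglo, smeyglo and snaglo), and its 5 tested loci had log2 fold changes of 0.08 to 0.45. The other was on chromosome 12 from 38870230 to 38878650 (spoyler, staler, stuler, styler, floylo and steeler), and its 3 tested loci had log2 fold changes of -0.29 to 0.65.

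The levels of adjacent loci were more alike at gaps of up to 5 kb than at longer ones. Across 255 pairs of adjacent tested AceView loci with a gap of 1 to 1000 bases, log2 mean counts had a Pearson r of 0.598 between neighbours. The value was 0.451 over the 55 pairs that overlap or touch, 0.325 over the 189 pairs with gaps of up to 5 kb, 0.0497 over the 593 pairs with gaps of up to 50 kb and 0.0411 over the 2885 pairs farther apart. The direction after OGD was shared by 54.5% of the pairs that overlap or touch, by 66.3% at gaps of 1 to 1000 bases, by 60.8% up to 5 kb, by 48.7% up to 50 kb and by 48.4% farther apart. For the log2 fold changes r was 0.0347, 0.0309, 0.132, 0.0671 and 0.0058 in the same order. These are descriptions across loci of the same 4 libraries, and loci are not independent replicates.

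Detection of the AceView rows was broad and their levels were low. A count above 0 in all 4 libraries was found for 6284 rows, or 74.1%, against 79.7% of other rows, and 339 rows had 0 in all 4. Per library, 83.9% to 86.6% of AceView rows had at least 1 count. The median of the mean count over libraries was 8.25 for AceView rows and 13.75 for other rows. On the scale of deposited FPKM, which divides by transcript length and library total, the median row stood at 0.526 and 0.798. The other rows are a mixture of sources. Their median FPKM was 1.79 in StringTie rows and 0.686 in rows with AceView-style names of another form. It was 0.499 in other NONCODE rows and 0.129 in Ensembl rows. Counted in all 4 libraries were 83.8%, 83.6%, 78.0% and 46.2% of these classes, in the same order. The AceView values lay between the highest and lowest of these classes. Unspliced AceView rows had a median FPKM of 0.709 and those without the tag 0.236. Within the rows that have AceView-style names of another form the gap was smaller, with medians of 0.800 for rows tagged unspliced and 0.648 for the rest.

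Longer rows had higher levels, and the span of levels was wider among AceView rows than among the others. From the class above 200 and up to 300 bases to the class above 2000 and up to 8000 bases, the median FPKM went from 0.195 to 5.35 for AceView rows and from 0.414 to 1.82 for other rows. AceView rows were the lower set in the 3 classes up to 1000 bases and the higher one in both classes above. The share tagged unspliced among AceView rows was 42.9% in the first class and 93.4% in the last. No test is attached to this, because rows are not replicates.

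**Figure D1:**
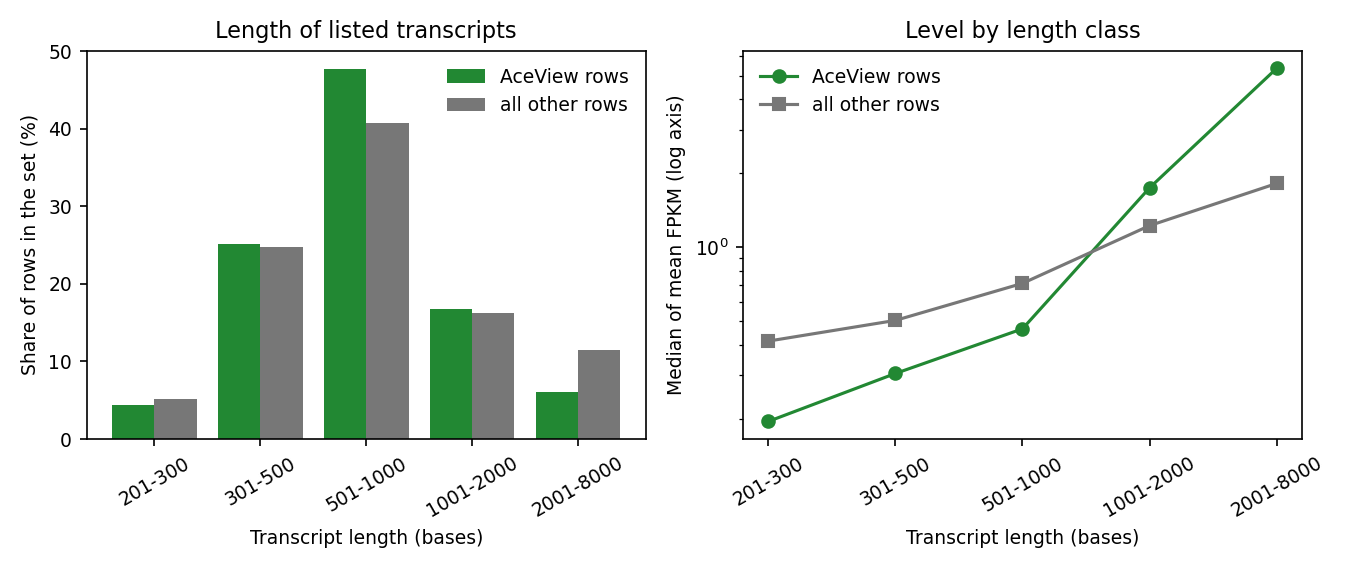
Left, the share of rows (percent of the set) in 5 length classes in bases, for AceView rows and all other rows. Right, the median over rows of the mean deposited FPKM of 4 libraries, on a log axis, by the same classes. The AceView line starts below the other at 0.195 and ends above it at 5.35. Other rows of 200 bases or less or above 8000 bases are not drawn.

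A minority of the AceView rows held most of their counts. The 10 rows with the most counts took 9.88% of all AceView counts, the top 100 took 36.7% and the top 1000 took 83.6%. No such shares are given here for other rows. A mean FPKM above 10 was reached by 510 AceView rows (6.02%), 474 of them unspliced, and by 485 other rows (4.03%).

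The 10 loci with the highest CPM were vorzee, koygler, shoymoy, fysho, sheejey, swapo, smoymar, lerwor, kluchee and blacher. All are single rows, 9 of them tagged unspliced. The tenth, sheejey, lacks the tag although its span of 2687 bases equals its length. The most abundant, vorzee (chromosome 4, 123638615 to 123641167), stood at 215 and 226 FPKM in the controls against 221 and 230 after OGD. Its nearest listed row with a symbol is at Slc6a6, the taurine transporter gene, 5810 bases away, where counts were 94 and 101 in the controls against 115 and 84 after OGD.

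The locus lerwor (chromosome 4, 14318276 to 14319961) measured 148 and 146 FPKM in the controls against 156 and 192 after OGD. At koygler (chromosome 1, 177709339 to 177714800) the values were 81.2 and 80.6 FPKM against 73.7 and 69.4. The pair smoymar and snamar on chromosome 11 are 234 bases apart, and both were lower in each OGD library. Counts of smoymar were 7836 and 7688 in the controls against 6108 and 6493 after OGD, and those of snamar were 4497 and 4540 and then 3647 and 3605. Neither passed the test, with adjusted p = 1.00 for both in edgeR. One of the 10 varied strongly within a group, as shoymoy (chromosome 10, 31237556 to 31240582) had 140 and 49.4 FPKM in the controls against 140 and 163 after OGD. Of the 10 loci, 0 passed the threshold.

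The share of all listed counts that fell on AceView rows differed between the groups by less than the spread of libraries. The shares were 32.6% and 32.7% in the controls and 31.9% and 33.1% after OGD. The means were 32.6% ± 0.0547 and 32.5% ± 0.821 (SD, n = 2 per group), a difference of -0.0996 percentage points (two-sided exact permutation p = 1, where 2 libraries against 2 cannot give less than 0.33). Without OGD replicate 1 the difference was 0.481 percentage points and without OGD replicate 2 it was -0.680, so its sign depended on which library was used. Unspliced rows supplied 29.7% to 30.9% of listed counts in each library, and AceView rows without the tag 2.19% to 2.28%. The libraries hold 2513804 to 2646300 listed counts each.

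**Figure D2:**
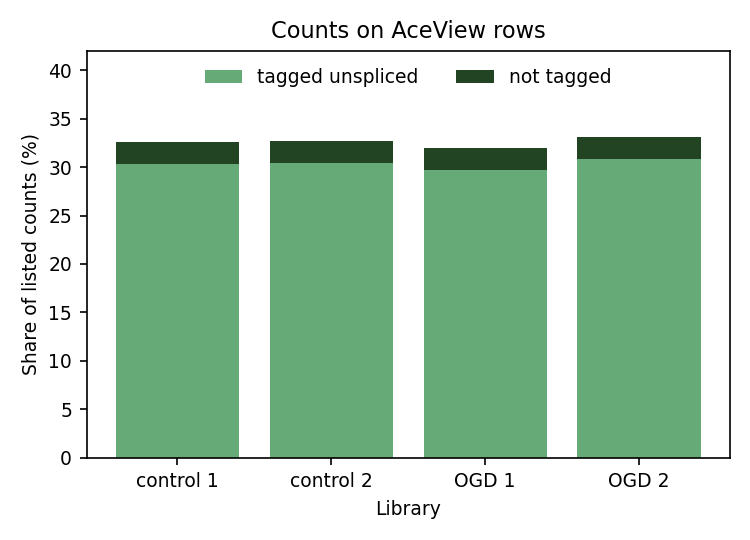
Bars give the percent of all listed counts that fell on AceView rows in each of the 4 libraries, split into rows tagged unspliced and rows without the tag. The 4 bars reach 31.9% to 33.1%, and the OGD libraries have both the lowest and the highest.

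The cells were checked by listed noncoding transcripts at marker genes, which need not follow the messenger RNA. Of 8 astrocyte markers 3 were listed (Gfap, Slc1a2 and Slc1a3), with Gfap, the astrocyte filament gene, at 100 and 61 counts in the controls against 139 and 51 after OGD. Aqp4, Aldh1l1, Gja1, S100b and Sox9 are not among the listed names. As summed CPM of listed counts over the libraries, astrocyte names came to 23.5 to 58.2, neuron names (Gria2 and Syn1) to 86.3 to 108, fibroblast names (Col1a1 and Col3a1) to 169 to 328 and microglia names to 5.29 to 35.3. The endothelial and mural names, Abcc9 and Pecam1, came to 3.84 and 7.22 in the controls against 32.1 and 23.9 after OGD. The rise lay in Abcc9, with 6 and 17 counts in the controls against 85 and 54 after OGD. Abcc9 did not pass in edgeR. Pecam1 had 4 and 2 counts in the controls against 0 and 6 after OGD and was not tested. Of the neuron names, Syn1, the synapsin I gene, was counted 2 times and 1 time in the controls against 98 and 45 times after OGD (log2 fold change 5.50, adjusted p = 0.185 in edgeR), and Gria2, a glutamate receptor gene, had 223 and 275 and then 187 and 222. The part of these cells in the results below was not tested. In bulk RNA, fewer cells of a type and less RNA per cell cannot be told apart.

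After OGD, 5 AceView loci passed the test, of 4004 with enough counts to be tested, 2 higher (all loci 0.0418%) and 3 lower (all loci 0.0418%). They were syby and bloyjo, which rose, and nubo, sharza and blermu, which fell, and in each the 2 groups were well apart. The test was edgeR's quasi-likelihood test fitted to all 9579 tested loci of the tables, with Benjamini-Hochberg adjusted p under 0.05. Of all tested loci 0.0835% passed, and of the AceView loci 0.125%. With so few calls the AceView share cannot be set apart from that background. DESeq2 called 18 AceView loci with these 5 among them, 10 higher and 8 lower, where it called 0.396% of all loci, 0.229% higher and 0.167% lower. In edgeR the 5 calls did not all hold whichever library was dropped. Such fits leave 1 library in a group, so they cannot show that a call rests on a particular library. With all 4 libraries, edgeR called 0 AceView loci when loci of low count were kept in (196 had an unadjusted p under 0.05). With any 1 library dropped, the log2 fold changes stayed between 5.70 and 6.24 for syby, 7.40 and 7.74 for bloyjo, -5.81 and -5.22 for nubo, -3.36 and -3.16 for sharza and -10.66 and -9.41 for blermu. The 4110 AceView loci that failed the count filter, which asks for counts in at least 2 libraries, are not covered by the test, and 545 of 1817 loci without an unspliced row were tested against 3368 of 6169 with unspliced rows only.

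The locus bloyjo (chromosome 15, 34531435 to 34531850) is 1 unspliced row of 416 bases. It had 1 count in each control library and 192 and 218 after OGD, or 0.0963 and 0.0912 FPKM against 18.5 and 20.9. Both OGD libraries were far above both controls. In edgeR the change was 7.57 on the log2 scale (SE 0.38), with an adjusted p of 0.0225. Its nearest listed row with a symbol is at Ripk3, which encodes a kinase of the necroptosis pathway, 57.7 kb away and with a log2 fold change of 1.19 (adjusted p = 1.00). The nearest listed row of any name, RGD1307170, lies 7775 bases from bloyjo. It had 159 and 569 counts in the controls against 211 and 144 after OGD, a log2 fold change of -1.03.

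On the X chromosome, syby (77020429 to 77026190) consists of a pair of overlapping rows that behaved differently. The unspliced row of 2685 bases had 1 count in each control and 1087 and 987 after OGD. The spliced row of 597 bases, which begins inside the first, had 14 and 19 counts in the controls against 15 and 9 after OGD. So the unspliced row was high in both OGD libraries while the spliced row had overlapping groups. Tested as separate rows, they had log2 fold changes of 9.90 (adjusted p = 0.0177) and -0.42 (adjusted p = 1.00) in edgeR. Summed, the locus changed by 5.94 (SE 0.28, adjusted p = 0.0225).

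Of the loci that fell, blermu (chromosome 11, 57404767 to 57405178) had the largest change. This unspliced row of 412 bases stood at 153 and 317 FPKM in control and at 0.195 and 0.194 after OGD. In counts the controls had 1577 and 3441, so they differed from each other, and both OGD libraries had 2. The log2 fold change was -10.18 (SE 0.70, adjusted p = 0.0464 in edgeR). The nearest listed transcript, from StringTie and 9174 bases away, had 345 and 774 counts in the controls against 312 and 659 after OGD.

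At nubo (chromosome X, 116752819 to 116754309), an unspliced row of 1491 bases, counts were 312 and 429 in the controls against 7 and 8 after OGD, which is -5.56 on the log2 scale (SE 0.36) with an adjusted p of 0.0464 in edgeR. It has AceView neighbours on both sides. One, jorby, 273 bases away, had 1 count in every library. The other, nobo, 867 bases away, had 4 and 164 counts in the controls against 176 and 171 after OGD, so it was low in control 1 alone. The locus sharza (chromosome 4, 49387632 to 49388935), 1304 bases and unspliced, measured 11.8 and 9.60 FPKM in the controls against 1.08 and 1.10 after OGD, which is -3.26 on the log2 scale (SE 0.22) with the same adjusted p of 0.0464.

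**Figure D3:**
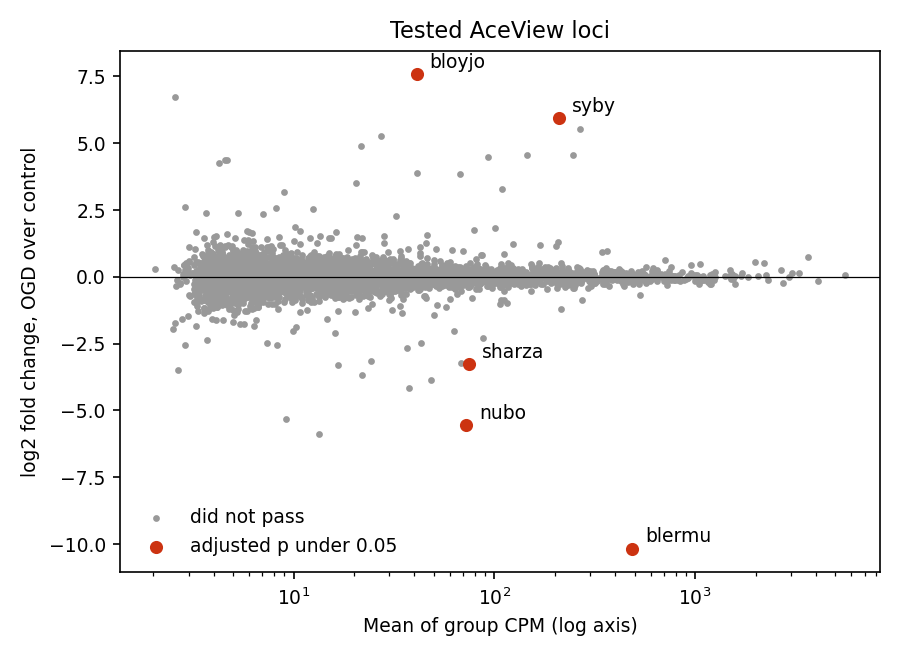
Each point is 1 of the 4004 tested AceView loci, with the mean of the group CPM on a log axis and the log2 fold change of OGD over control. Red points are the 5 loci with an adjusted p under 0.05, from 7.57 at bloyjo to -10.18 at blermu, and most grey points lie near 0.

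Most tested AceView loci differed little between the groups. The median log2 fold change was 0.01, with quartiles of -0.21 and 0.23, and over all tested loci the median was -0.0016 with quartiles of -0.21 and 0.22. An unadjusted p under 0.05 in edgeR was found at 93 of the 4004 AceView loci, or 2.32%, where 2.34% of all tested loci had one. Higher after OGD were 52 (1.30%, all loci 1.24%) and lower 41 (1.02%, all loci 1.1%). Groups did not overlap in CPM at 559 loci with higher OGD values and 557 with lower ones, 14.0% and 13.9%, against 14% in each direction for all loci. In all these counts the AceView loci were at the background. A change of at least 2-fold was seen upward at 91 loci (2.27%, all loci 2.32%) and downward at 85 (2.12%, all loci 2.1%).

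The size of the difference followed the number of counts. Among AceView loci with a mean of 10 or fewer counts the median absolute log2 fold change was 0.42, between 30 and 100 counts it was 0.24, and above 1000 counts 0.09. Loci outside the set had 0.36, 0.23 and 0.11 in the same classes. Unspliced and spliced loci had median absolute changes of 0.21 and 0.26, with median mean counts of 49.4 and 27.8.

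Among AceView loci higher after OGD in both libraries that did not pass edgeR's adjusted threshold, blyko came first. It is an unspliced row of 3510 bases (chromosome 14, 83290313 to 83293822), with 21 and 20 counts in the controls against 579 and 328 after OGD, 4.50 on the log2 scale (SE 0.34, adjusted p = 0.0559). The row RGD1305469 lies 257 bases away and had 113 and 113 counts in the controls against 126 and 101 after OGD. A like contrast was seen at barza on chromosome 4 (33942100 to 33943217), which had 34 and 12 counts in the controls against 358 and 282 after OGD (adjusted p = 0.230). Its AceView neighbour boza, also at 257 bases, had 348 and 414 and then 368 and 313. In both cases the neighbour's groups overlapped.

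The locus teyblu (chromosome 2, 115353321 to 115354201) had 6 and 21 counts in the controls against 136 and 247 after OGD (adjusted p = 0.832). Beside it, teeblu, 532 bases away, had 4 to 7 counts in every library, and the listed transcripts at Rpl22l1, which encodes a ribosomal protein paralog, 8691 bases away, had 52 and 66 and then 46 and 79. The locus suror (chromosome 8, 122954547 to 122957477) had 10 and 7 counts in the controls against 91 and 98 after OGD (adjusted p = 0.0940). The locus stoglar (chromosome 1, 153595466 to 153598375) had 19 and 40 counts in the controls against 617 and 1963 after OGD, so the OGD libraries also differed from each other (adjusted p = 0.429). At rynar the counts were 2 and 5 in the controls against 215 and 61 after OGD (adjusted p = 0.502). Rows with 1 count in each control were vorbee (23 and 22 after OGD), gapey (21 and 20) and jeebo (20 and 24). The tenth was varkly, with 8 and 4 counts in control and 30 in each OGD library (adjusted p = 0.892).

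Lower after OGD in both libraries, without passing, were speyrar (chromosome 8, 72053108 to 72053497), with 67 and 71 counts in control and 1 in each OGD library (adjusted p = 0.0559), and plarflaw (chromosome 1, 31068701 to 31069048), with 60 and 35 and then 1 and 1 (adjusted p = 0.136). Scaled by the normalised library sizes that CPM use, the summed counts of speyrar were 66.3-fold lower after OGD (95% exact interval 18.0 to 553). Those of plarflaw were 45.6-fold lower (12.3 to 382). These intervals cover counting error only.

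The locus sorja (chromosome 15, 25358517 to 25363442) repeated the division of rows seen at syby in the other direction. Its unspliced row of 2678 bases had 277 and 178 counts in the controls against 2 and 4 after OGD, and its spliced row of 819 bases had 12 and 11 and then 16 and 9. As separate rows the log2 fold changes were -6.11 (adjusted p = 0.0913) and 0.16 (adjusted p = 1.00) in edgeR, and the summed locus had -3.87 (SE 0.31, adjusted p = 0.0608). Whether the rows of a locus differ from each other in their change was not tested at either locus.

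**Figure D4:**
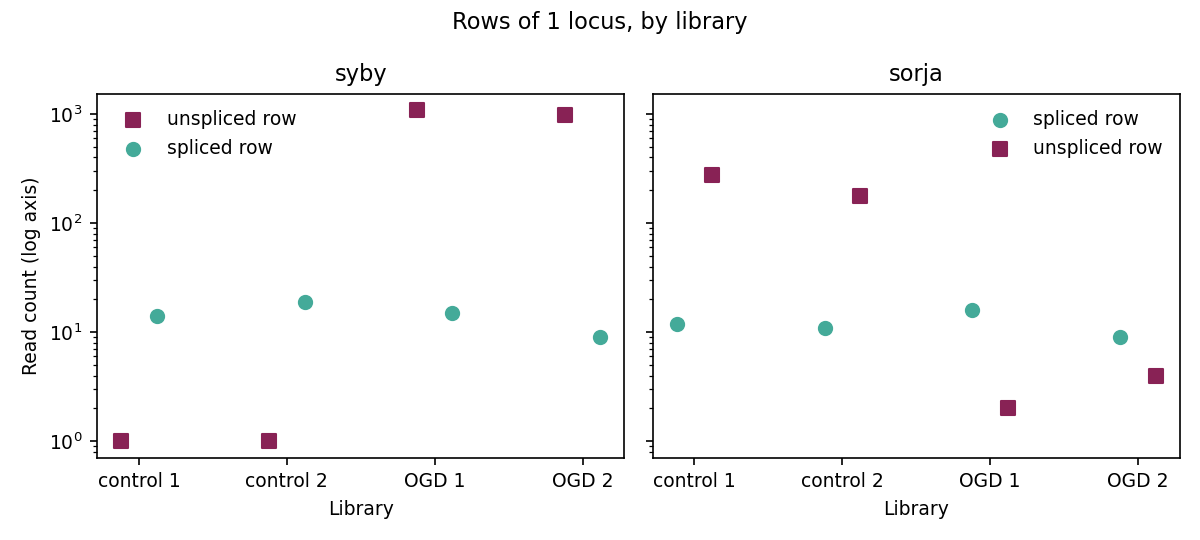
Read counts on a log axis for the unspliced row (squares) and the spliced row (circles) of syby, left, and sorja, right, in the 4 libraries. The unspliced row moves from 1 count to 1087 and 987 at syby and from 277 and 178 to 2 and 4 at sorja, and the spliced rows stay between 9 and 19 counts.

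Smaller differences made up the rest of the loci that were lower. The locus nywy (chromosome 5, 122699702 to 122701898) had 260 and 271 counts in the controls against 36 and 88 after OGD, a log2 fold change of -2.01 (SE 0.50). At jasha (chromosome 3, 119361649 to 119365451) the controls differed from each other, with 68 and 257 counts against 22 and 28. The loci flargoy, kleyflo, nerjee, geeshey and fawbu had log2 fold changes of -2.54, -1.83, -1.75, -1.30 and -1.14. All 7 had an adjusted p of 1.00 in edgeR. Of the 20 loci named without passing in edgeR, 10 had an adjusted p under 0.05 in DESeq2: blyko, stoglar, barza, rynar, suror, teyblu, speyrar, sorja, plarflaw and nywy. DESeq2 also called verpey, zerglu and peesoy. Counts of zerglu were 362 and 28 in the controls against 9 and 11 after OGD. Those of peesoy were 1 and 6 in the controls against 12 and 190 after OGD. In zerglu and peesoy a single library stood far above the rest.

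**Figure D5:**
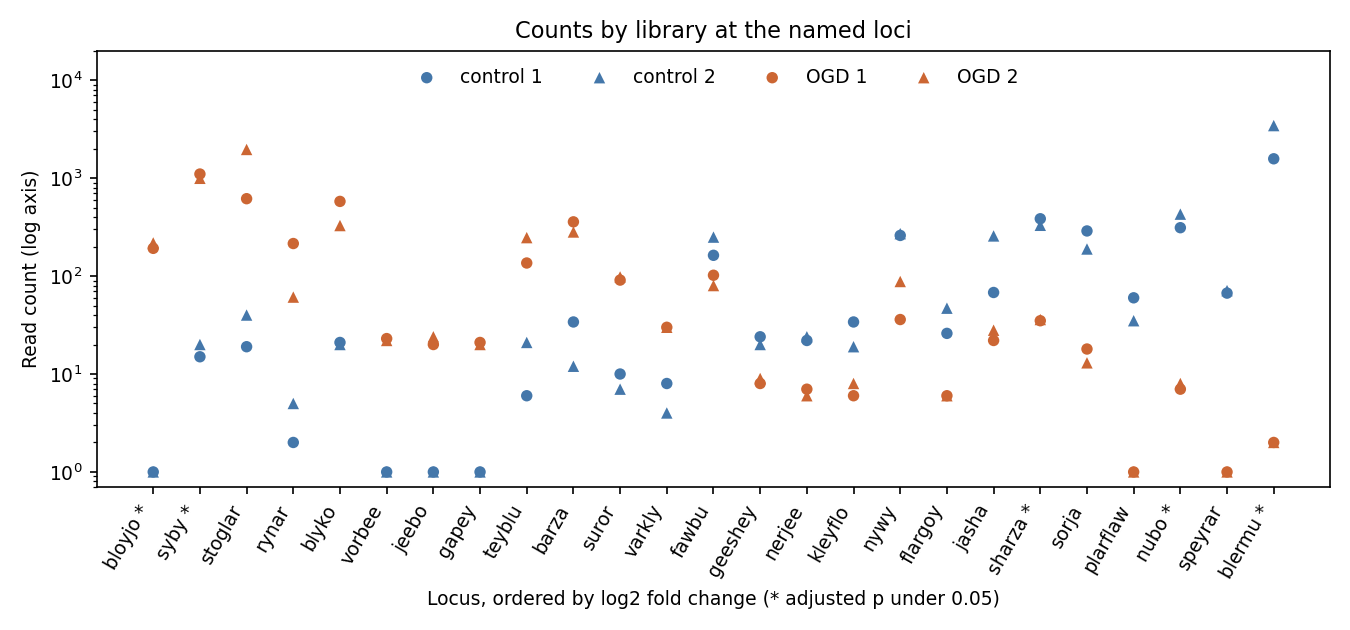
Read counts on a log axis for 25 AceView loci in each library, ordered by log2 fold change, with blue for control, orange for OGD, circles for replicate 1 and triangles for replicate 2. Asterisks mark the 5 loci that passed, and at all 25 the 2 colours do not overlap, as the choice of 20 of them required.

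Loci that were nearly silent in 1 group and counted in the other were few. At most 3 counts in each control and at least 30 in each OGD library were found at 1 AceView locus, bloyjo, of 4004 (all tested loci 0.0626%). The reverse was found at 3, blermu, speyrar and plarflaw (all tested loci 0.0626%). Differences of this size also occurred in single libraries, a pattern looked for after the values were seen. A library that stood at least 10-fold above or below each of the other 3, with at least 30 counts on the high side, was found at 63 of all 8114 AceView loci, 31 times as the high library and 32 times as the low one. Of the high ones 25 had failed the count filter and 6 had passed it, and all of the low ones had passed. By library these were 13 for control 1, 20 for control 2, 14 for OGD 1 and 16 for OGD 2. By the same measure both OGD libraries stood 10-fold from both controls at 10 loci, 5 higher (bloyjo, syby, blyko, stoglar and rynar) and 5 lower (blermu, nubo, speyrar, plarflaw and sorja). Loci outside the set gave 63 for any single library, of 9169, and 12 by group.

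Some of the single-library cases were abundant. The locus sneejer (chromosome 15, 108912682 to 108913708) had 1336 and 14 counts in the controls against 1258 and 1170 after OGD. At rotoy (chromosome 6, 104327433 to 104329871) the counts were 936 and 918 in the controls against 6 and 918 after OGD, and at jeefo (chromosome 18, 44529891 to 44530427) 363 and 364 and then 7 and 360. On chromosome 15, darjy (2685505 to 2686639) and deejy (2686886 to 2688524) lie side by side. There darjy had 3 and 235 counts in the controls against 203 and 261 after OGD, and deejy had 395 and 361 and then 416 and 5. So the low library was control 1 at the first and OGD 2 at the second. Among high ones, berblee (chromosome 2, 186420743 to 186423811) had 6 and 6 counts in the controls against 5109 and 9 after OGD, and boty (chromosome 7, 139343184 to 139344382) 3 and 3 and then 3 and 757. Neither entered the test with all 4 libraries, and berblee was among the loci called without OGD replicate 2. Of those that did enter it, feygler had 25 and 37 counts in the controls against 1478 and 11 after OGD, and shovoy 29 and 74 and then 71 and 2216.

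Loci with several rows were a minority, 290 of 8114, and 6 of them join rows that share a name and lie over 1 Mb apart. The most rows were at pawflo with 6, followed by beeto, feewey, kashee, skeepey and starvo with 5 each. Most of their rows are spliced variants, and counts were spread unevenly over them. At kashee on chromosome 2, 1 row of 1405 bases held 260 of 273 and 172 of 205 counts in control and 362 of 415 and 218 of 226 after OGD. At starvo on chromosome 5 the longest row had 140 and 84 counts in the controls against 156 and 76 after OGD. Libraries of 1 group could differ at a single row, as at beeto, where 1 row of 948 bases had 17 and 2 counts in the controls against 100 and 17 after OGD. The summed loci had log2 fold changes between -0.15 at skeepey and 0.58 at beeto, and 0 of the 6 passed.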

How the data were processed

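The authors deposited 1 table per library with whole-number read counts and FPKM for the same 20524 transcripts, per the file headers. HISAT2 and StringTie are named, without versions, in the submitters' processing notes. Which program counted the reads, and whether by strand, is not given in the sources used here, so overlapping rows may share or split reads. Deposited FPKM were used as given for levels per length and to find the library totals behind them, 24934040 to 26371055, of which listed counts were 9.98% to 10.6%.

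Counts were summed by name and chromosome into 17283 loci and tested with edgeR 4.0.16 (R 4.3.3) by the quasi-likelihood F test between groups after filterByExpr and TMM, adjusting over 9579 loci. CPM are TMM-normalised. The standard error is the absolute log2 fold change over the square root of F. The steps were tested on simulated data. No jumps of a single library were put into those data, so the test does not cover such cases. Alternatives were DESeq2 1.42.0, other scalings, filters, thresholds and features, the replicate block and each library left out. Figures used matplotlib 3.10.9 and the permutation test scipy 1.17.1.

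Loci named are those past the threshold, the next 10 per direction by p (groups apart, mean count of 20 or more in either), the 10 highest in CPM, the nearly silent ones, the 3 longest and shortest rows and the 5 loci with the most rows (6 with ties). Neighbours and single-library cases were named after their values were seen. The members and lists were chosen with earlier results of these data known. None of the AceView names matched a symbol of the RefSeq table (assembly GRCr8), and no sequence was used here.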

Additional observations from a re-analysis of the deposited data

How the results depend on the processing

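The 5 changed AceView loci (2 higher, 3 lower) became 18 in DESeq2 (10 higher, 8 lower), 0 in edgeR without a filter on low counts (0 higher, 0 lower, with 196 at an unadjusted p under 0.05), 1 with rows as deposited (1 higher, 0 lower) and 72 when an unadjusted p under 0.05 and a 2-fold change sufficed (37 higher, 35 lower). With 1 library left out, 0 to 6 loci passed, 0 to 5 higher and 0 to 1 lower, where the single remaining library of a group was taken to be as variable as the pair in the other. With the replicate block 11 loci passed (6 higher, 5 lower), the 5 and also stoglar (adjusted p = 0.00301), blyko (0.0101), sorja (0.0101), speyrar (0.0312), teyblu (0.0312) and barza (0.0342) in edgeR, and deviations of same-numbered libraries correlated at 0.274 across tested AceView loci. The other 4 settings (DESeq2 size factors, no TMM, 10 counts in 2 libraries, merged overlaps) gave 5 to 7 loci, always including the 5. For these differences the cause was not tested, although fewer libraries, unsummed rows or more loci enter some of the fits. For 25 named loci, 298 log2 fold changes under alternatives kept their direction, of which 27 lost and 20 gained a call. The difference in the share of counts turned from -0.0996 to 0.0262 percentage points over the totals implied by FPKM and to 0.559 with gokla and stawflu kept in, and ranged from -0.680 to 0.481 when 1 library was left out. With both libraries of each group in the test, the exact permutation p was at least 0.667 in every setting. Depth limits what can be seen, since 4110 AceView loci failed the count filter, most with few counts (median of the mean count 1.75), although 34 of them had at least 30 counts in a library.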
